A study of Mus musculus with 6 samples.

Results

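The results below describe how the m6A enrichment of RNA differed between spermatocytes without ClpP and wild-type spermatocytes. They take in every peak of the deposited ClpP comparison with no selection, 24127 peaks on 13334 genes, out of the 47808 peaks that the study's comparisons list. N6-methyladenosine (m6A) was measured by antibody capture of methylated RNA and sequencing (m6A-seq). Each condition has a captured (IP) library and an input library of the RNA before capture. The cells were primary male germ cells, labelled spermatocytes, from mice at postnatal day 35. The groups were wild type (WT_ip and WT_input) and a ClpP conditional knockout (ClpP_cKO_ip and ClpP_cKO_input) made with Stra8-Cre, with 1 library in each of the 4 groups. A ClpX knockout, compared with the same WT libraries, gives values set beside some results and is not described for itself. Stra8-Cre acts in germ cells from the spermatogonia that precede meiosis, so the somatic cells of the testis keep ClpP in this model. The labels do not say whether the RNA of several animals was pooled, nor how the germ cells were purified. No group has a replicate, so no difference below has a replicate check and none has a replicate error.

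ClpP is the proteolytic chamber of ClpXP, a protease of the mitochondrial matrix, and ClpX is the unfoldase that feeds proteins into it. ClpXP degrades damaged and surplus matrix proteins and takes part in the maturation of the mitochondrial ribosome. m6A is the most abundant internal mark of mRNA. It is written in the nucleus by the METTL3 and METTL14 enzyme complex, lies mostly in long exons and around stop codons, and is bound by reader proteins that affect splicing, translation and decay. Male meiosis and the shaping of sperm rely on transcripts that are stored and translated later, and loss of m6A writers or readers is known to disturb spermatogenesis.

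For each peak the authors' deposited table gives a log2 fold change of enrichment and an adjusted p for the difference between the genotypes. A positive value is read here as higher enrichment in the knockout. That direction rests only on the table naming the knockout first, so every "higher" and "lower" below would swap if the ratio ran the other way. Peaks with an adjusted p of the authors under 0.05 count as called, which compares these libraries and not the conditions in general. Fold enrichment is the authors' ratio of IP over input, given once per peak for all libraries together. Coordinates are those of GRCm38 (mm10).

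Peaks at the 5' start of genes showed lower enrichment in the knockout more often than peaks elsewhere, and the sequences at 8 such starts are shown first so that the position and the values can be read together. Lower peaks with all of their first 50 transcribed bases covered lay on Hspb9, a small heat shock protein, and Fbp1, the fructose-1,6-bisphosphatase of gluconeogenesis. They also lay on Rpl10l, a germ-line ribosomal protein, Mrpl37, a subunit of the mitochondrial ribosome, Hk2, a hexokinase of glycolysis, and Preb, which activates the Sar1 GTPase of vesicle export from the endoplasmic reticulum. Higher start peaks of the same kind lay on Hyal6, a hyaluronidase-like gene, and Pank4, a member of the pantothenate kinase family. These 8 were chosen after their values were seen. Candidates were peaks of 1 block and at most 300 bases on chromosomes other than 18. Predicted genes and peaks sharing bases with another gene's peak were left out. The 6 lower candidates with the smallest adjusted p and the only 2 higher candidates are shown. Each sequence is from RefSeq (GRCm38.p6), 5' to 3' on the gene's strand, with 70 bases before the start in lower case and the first 30 transcribed bases in capitals.
Hspb9 (chr11:100713859-100713958, plus strand, lower in the knockout): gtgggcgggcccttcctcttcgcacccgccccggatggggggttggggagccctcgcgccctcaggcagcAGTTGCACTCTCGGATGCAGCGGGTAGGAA
Fbp1 (chr13:62888253-62888352, minus strand, lower in the knockout): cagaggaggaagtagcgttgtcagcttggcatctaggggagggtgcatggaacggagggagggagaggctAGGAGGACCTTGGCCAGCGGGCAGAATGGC
Rpl10l (chr12:66284372-66284471, minus strand, lower in the knockout): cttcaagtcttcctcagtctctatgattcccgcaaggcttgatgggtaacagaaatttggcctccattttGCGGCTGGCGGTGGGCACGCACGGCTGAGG
Mrpl37 (chr4:107066837-107066936, minus strand, lower in the knockout): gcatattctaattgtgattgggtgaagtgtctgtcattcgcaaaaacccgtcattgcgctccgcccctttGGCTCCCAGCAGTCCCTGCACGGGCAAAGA
Hk2 (chr6:82774425-82774524, minus strand, lower in the knockout): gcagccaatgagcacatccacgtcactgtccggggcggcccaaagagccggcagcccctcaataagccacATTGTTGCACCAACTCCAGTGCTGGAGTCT
Preb (chr5:30960298-30960397, minus strand, lower in the knockout): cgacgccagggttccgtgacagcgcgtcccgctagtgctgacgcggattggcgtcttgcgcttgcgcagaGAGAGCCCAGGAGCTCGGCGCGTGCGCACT
Hyal6 (chr6:24733175-24733274, plus strand, higher in the knockout): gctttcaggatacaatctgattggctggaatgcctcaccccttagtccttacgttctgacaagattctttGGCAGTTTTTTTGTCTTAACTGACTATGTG
Pank4 (chr4:154964053-154964152, plus strand, higher in the knockout): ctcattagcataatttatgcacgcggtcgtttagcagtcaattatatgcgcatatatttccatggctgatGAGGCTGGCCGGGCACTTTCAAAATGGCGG

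The authors' deposited table gives log2 fold changes of -0.71 for the Hspb9 start peak (chr11:100713922-100714129) and -1.11 for that of Fbp1 (chr13:62888163-62888282). The start peak of Rpl10l had -0.99 in the authors' deposited table, that of Mrpl37 had -1.02, that of Hk2 had -1.74 and that of Preb had -2.89. Hyal6 and Pank4 were higher at their starts, by 1.26 and 1.88 in the authors' deposited table, and their adjusted p-values of 0.0282 and 0.0479 lay close to the threshold. Hspb9 carried 4 listed peaks and all 4 were called lower. In the first 50 transcribed bases, the letters GGAC, the core of the m6A consensus, read on the transcribed strand only, were found for Fbp1 and Hk2 and not for the other 6.

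Over the whole comparison, higher calls numbered 1626 (1433 genes) and lower calls 3096 (2649 genes), which is 6.74% and 12.8% of all peaks and 19.6% together. Enrichment was therefore more often called lower than higher in the knockout, while the middle of the distribution lay near 0, with a median log2 fold change of -0.03 and quartiles of -0.61 and 0.66. A change of at least 1 on the log2 scale, up or down, was reached by 31.2% of the peaks, and 5320 peaks that large were not called. Among called peaks of that size the directions were nearly even, 1085 higher and 1122 lower. Called decreases were mostly modest changes of long peaks, with a median of -0.84 and a median length of 568 bases, and called increases were larger changes of weaker peaks, with medians of 1.32 and 330 bases. The median fold enrichment was 7.97 for the lower peaks and 3.83 for the higher ones.

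**Figure D1:**
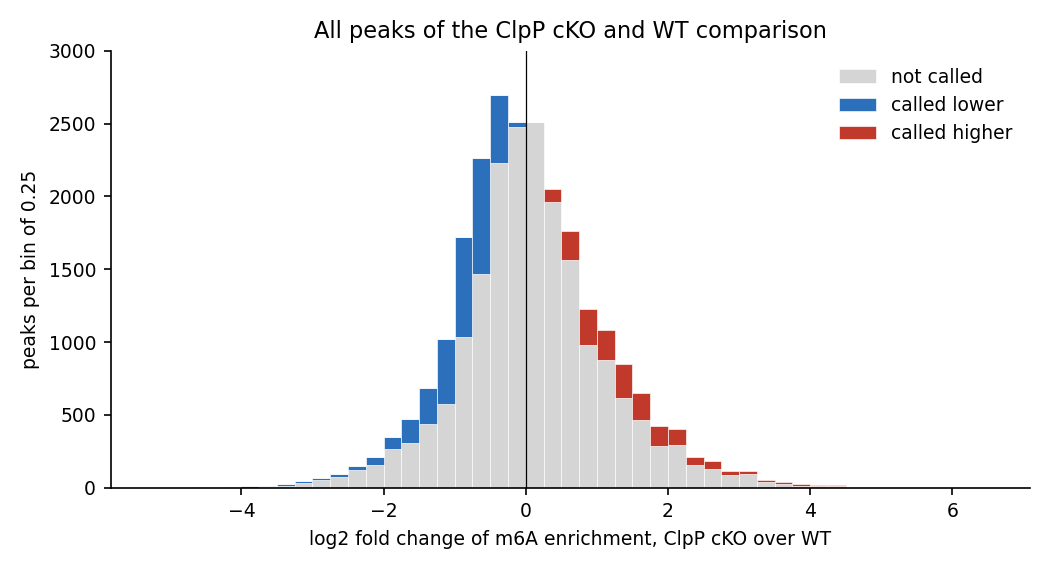
Number of peaks (y axis) in bins of 0.25 of the log2 fold change of m6A enrichment, ClpP cKO over WT (x axis), with called peaks in colour and uncalled peaks in grey. The 3096 blue lower calls sit mostly between 0 and -2, and the 1626 red higher calls reach further out, up to the largest value of 6.04.

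The threshold itself separates similar peaks. The 19 peaks just inside it had an adjusted p of 0.0490 and a median absolute log2 fold change of 1.16, and the 26 just outside it had 0.0501 and 0.74. How a peak was measured moved with its call. Peaks were ranked into 5 groups of like size (quintiles). In the quintile with the strongest support (the smallest p of the peak itself), 41.4% were called lower and 5.30% higher, and in the quintile with the weakest support 0.84% and 2.45%. From the shortest to the longest quintile by length, the share called lower went from 2.92% to 29.2%. From the weakest to the strongest quintile by fold enrichment, the share called higher went from 15.5% to 2.87%. The calls of a gene group below are therefore given with the median over its peaks, and are to be read against the 6.74% higher and 12.8% lower of all peaks. Peaks of like strength were compared for starts, peaks across several exons, the X chromosome and cohesin, and not for the other groups.

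The targeted gene gave no check of the labels. Clpp had no listed peak in the ClpP comparison, and the single Clpx peak (chr9:65329852-65330240) was not called, with 0.38 on the log2 scale in the authors' deposited table. No expression levels were given, so only which cell type markers carried a listed peak could be read. A listed peak needs m6A enrichment as well as RNA, so these counts do not identify the cell type. Of 24 spermatocyte markers 16 had a peak, among them Sycp1, Sycp2, Sycp3 and Spo11, and Dmc1, Msh4 and Ccna1 were among the 8 without one. Of 17 spermatid markers 15 had a peak, Prm1, Prm2, Tnp1 and Tnp2 included, so RNAs of cells past meiosis were in these libraries. Of 18 Sertoli cell markers 12 had a peak, the same share as among the spermatocyte markers. Of 24 markers of other somatic cells (Leydig, vascular, immune, muscle-like and connective tissue cells) 11 had one. Those with a peak were Star, Hsd3b1, Cdh5, C1qa, C1qb, Myh11, Col1a1, Col1a2, Col3a1, Dcn and Pdgfra. Insl3, Cyp11a1, Cyp17a1, Pecam1 and Ptprc were among the 13 without one. In bulk libraries, fewer cells of a type and less RNA per cell cannot be told apart, and a gene read in several cell types gives a mixed enrichment.

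Start peaks as a class stood lower than the rest. A start peak is one that shares bases with the RefSeq window from 250 bases before to 50 bases after the start of its own gene. There were 1299 on 1271 genes, and 260 (20.02%) were called lower against 47 (3.62%) called higher. Among the other 22828 peaks, 12.4% were called lower and 6.92% higher. The median log2 fold change was -0.32 at starts, with quartiles of -0.91 and 0.27, and -0.01 elsewhere. By distance, peaks whose 5' edge lay within 50 bases of the start had 20.7% lower and 4.39% higher calls (752 peaks), and peaks at least 5000 bases away had 11.6% and 7.497% (15447 peaks).

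Start peaks were also weaker, with a median fold enrichment of 5.61 against 8.42, so they were set beside peaks of like strength. The median at starts was below that of the other peaks in 5 of 5 quintiles of fold enrichment, by 0.08 to 0.64, and in 5 of 5 quintiles of peak support. It was lower in 4 of 5 quintiles of length; in the longest quintile it was -0.25 at starts and -0.26 elsewhere. The weakest quintile by fold enrichment showed the widest gap, with a median of -0.42 for 341 start peaks and 0.22 for 4490 others. In single genes with both kinds of peak, the start median lay below the median of the other peaks in 529 of 842 (62.8%). The median difference over these genes was -0.39. Peaks of 1 gene share their RNA, so these genes are a description and not replicates of the condition.

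In the ClpX comparison, which shares the WT libraries and in which 15.1% of all peaks were called higher, 5% lower and 20.1% either way, start peaks had a median of 0.21 and the other peaks 0.24. The first transcribed base was A at 40.8% of the 260 lower starts, at 25.5% of the 47 higher ones and at 40.2% of the uncalled ones, against 31.0% of the start windows of all genes with a peak and 34.4% of all windows in the reference. The letters GGAC lay in the first 50 transcribed bases, on the transcribed strand, in 19.2% of lower, 21.3% of higher and 21.6% of uncalled starts, and in 18.9% of all windows. Such matches describe annotated sequence only and mark no site.

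**Figure D2:**
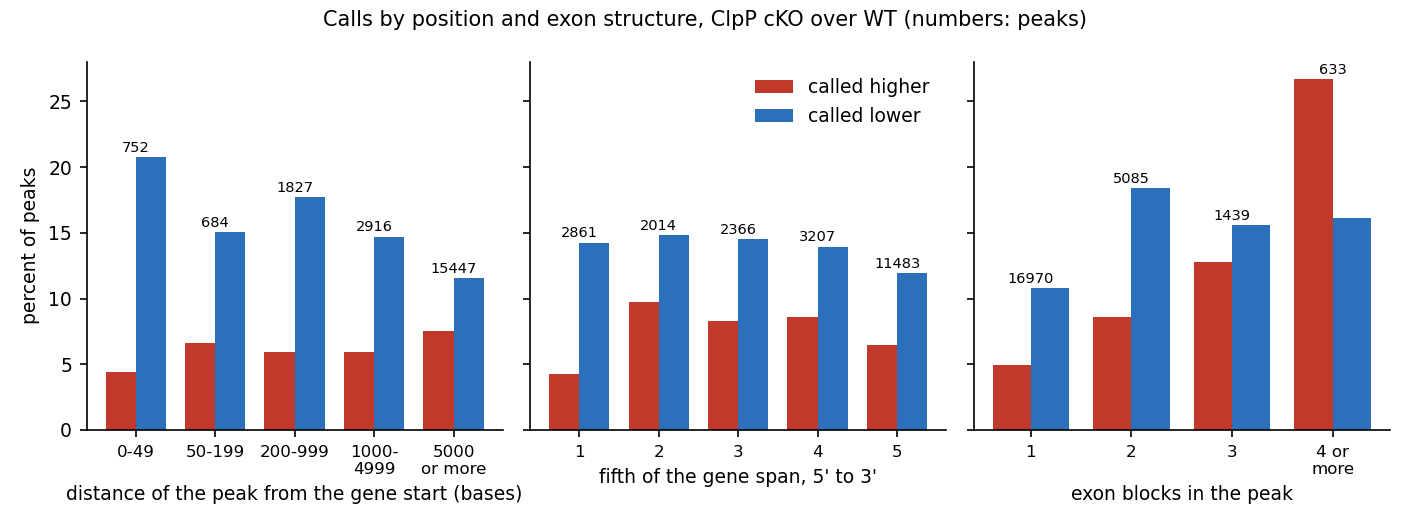
Percent of peaks called higher (red) and lower (blue) by distance of the peak's 5' edge from the gene start in bases (left), by 5 equal parts of the gene span (middle) and by number of exon blocks in the peak (right), with the number of peaks above each pair. Lower calls are most frequent within 50 bases of the start, at 20.7%, and higher calls are most frequent in peaks of 4 or more blocks, at 26.7%.

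Along the gene span, only the first of 5 equal parts stood apart in its median. That first part of the span held 2861 peaks with a median of -0.19, and 408 were called lower and 121 higher. The 3 middle parts had medians of 0, and the last part, with 11483 peaks, had -0.02, with 1371 called lower and 743 higher. The second part had the highest share of higher calls, 9.73%.

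Peaks that ran across several exons were called higher more often. A peak is listed as 1 or more blocks, each within an exon. The share called higher was 4.92% for 1 block, 8.61% for 2, 12.8% for 3 and 26.7% for 4 or more (169 of 633), and the medians were -0.04, -0.11, 0.07 and 0.26. The share called lower had no such order, with 10.8%, 18.4%, 15.6% and 16.1%. Peaks of 3 or more blocks were called higher more often than those of 1 or 2 in each quintile of fold enrichment, by 31.8% against 13.8% in the weakest quintile and 4.03% against 2.78% in the strongest. They were also called lower more often in the 3 strongest quintiles, by 20.4% against 14.5%, 23.5% against 11.2% and 21.0% against 11.6%, and their median was the lower one in the 2 strongest, with -0.14 against -0.08 and -0.19 against -0.17. In the ClpX comparison 27.5% of peaks of 4 or more blocks and 13.6% of peaks of 1 block were called higher.

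Genes with several peaks were compared along their length. Of the 13334 genes, 7191 had 1 peak and 6143 had several, up to 20. Of 702 genes with at least 2 called peaks, 336 had only lower calls, 120 only higher calls, and 246 (35.0%) had calls in both directions. Several genes with the most calls in 1 direction were higher. They code for proteins of the sperm tail (Fsip2, Spag17), of the chromosome axis (Sycp2, Smc3), of mitotic and meiotic chromosome compaction (Smc4) and of the centriole (Lrrcc1). Genes with equal numbers of calls were ordered by the size of their changes. Fat1, an atypical cadherin, was lower, and Hspb9, described above, had as many lower calls as Fat1.

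Fsip2 codes for a large protein of the fibrous sheath of the sperm tail, and 10 of its 20 peaks were called higher and none lower. In the authors' deposited table its called peaks ranged from 0.84 (chr2:82981878-82982928) to 3.24 (chr2:82984834-82985014), and its lowest uncalled peak had -0.77. Sycp2, which forms the axial element of the synaptonemal complex, had 4 of 6 peaks called higher, led by 2.54 over 3 blocks (chr2:178369374-178374953) in the authors' deposited table. Its other called peaks had 1.99, 1.58 and 1.38 in the authors' deposited table, and the uncalled ones had 1.22 and 0.54, so all 6 lay above 0. Lrrcc1 had 4 of 5 peaks called higher, from 1.18 to 2.74 in the authors' deposited table. Spag17, a protein of the central pair of the axoneme, had 4 of 5 called higher, from 0.47 to 1.54 in the authors' deposited table. Fat1 ran the other way, with 4 of 7 peaks called lower at -1.0, -0.71, -0.83 and -1.15 in the authors' deposited table. Its first called peak covers the gene start, and the last one lies at 99.0% of the gene span.

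**Figure D3:**
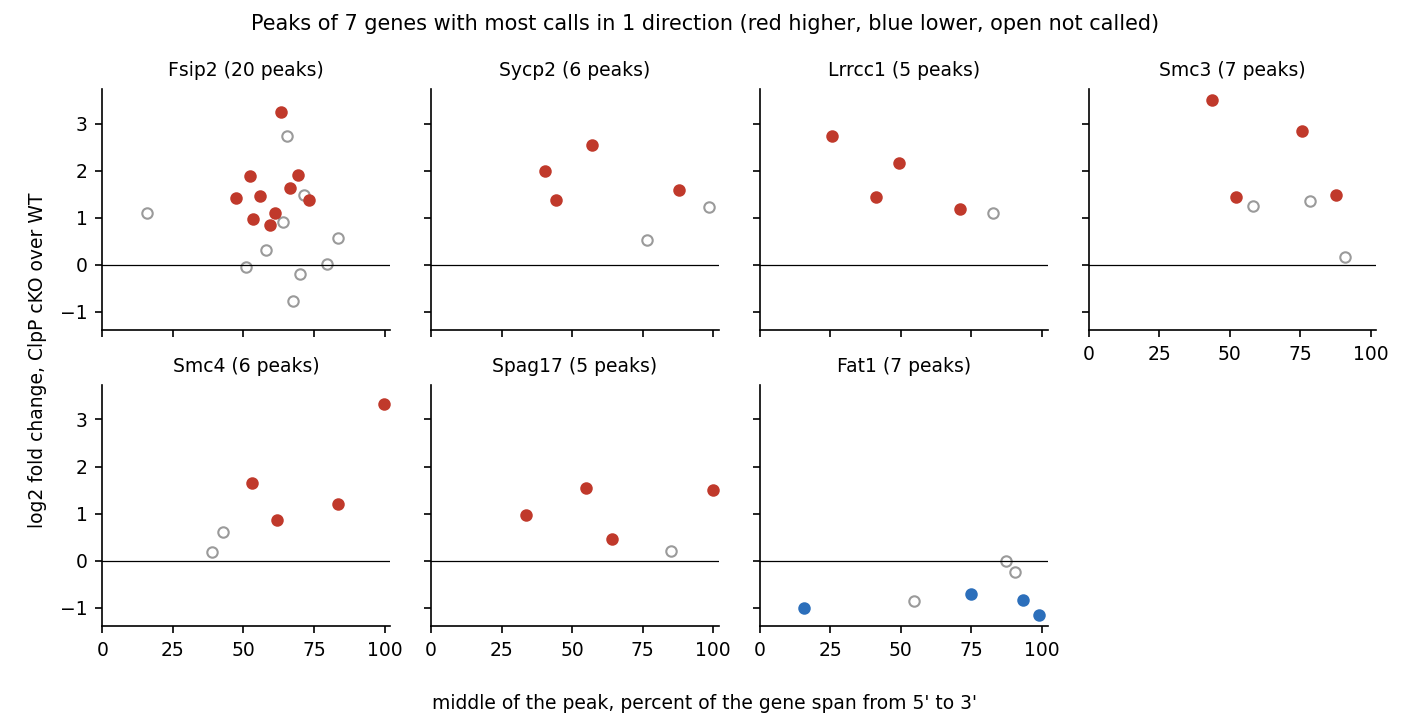
Log2 fold change of each peak (y axis) against the position of its middle in percent of the gene span from 5' to 3' (x axis) for 7 of the genes with the most called peaks in 1 direction, with red for called higher, blue for called lower and open circles for uncalled. Called peaks of the 6 genes with red points all lie above 0, those of Fsip2 between 47.5% and 73.2% of the gene span, and the 4 called peaks of Fat1 lie between -0.71 and -1.15.

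Other transcripts had calls in opposite directions, at neighbouring peaks in Zfpm2 and far apart along the gene in others. Zfpm2, a cofactor of GATA transcription factors, had a peak at -3.90 (chr15:41101893-41102223) and one at 4.22 (chr15:41102463-41102673) in the authors' deposited table, both in the last 1% of the gene span. Its outer peaks had 0.67 and -0.60 in the authors' deposited table and were not called. Bola2, an iron-sulfur cluster protein, was lower at its start, at -1.74, and higher at its end, by 2.80, in the authors' deposited table. Rhbdd1, a rhomboid protease, had -1.09 at 18.7% and 2.85 at 99.2% of the gene span in the authors' deposited table. Unc13b, which primes vesicles for release, was lower at 1 of 13 peaks, at -3.12, and higher at its last 2, by 1.97 and 1.51, in the authors' deposited table. Usp54 and Tnrc6c were also among the genes with the widest gap between directions. Tnrc6c, of the complex through which miRNAs silence mRNA, had 2.87 over 4 blocks near its first exons and -1.20 near its end in the authors' deposited table.

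The largest single changes were taken among called peaks with a fold enrichment of at least 5. The authors' deposited table gave the largest increases for Rflnb, a filamin-binding protein, at 5.81 (chr11:76021515-76021723), Cip2a, an inhibitor of the phosphatase PP2A, at 5.0 (chr16:49014982-49015879), and Zfp292 at 4.75. Their adjusted p-values in the authors' deposited table were 0.0098, 0.0417 and 0.0186, so these were not among the best supported calls. Frg2f1, Hmgb1-rs17, Zfp991 and Rbak followed, with 4.43, 4.30, 4.29 and 4.06 in the authors' deposited table. Hs3st1, a sulfotransferase that modifies heparan sulfate, had 4.15 in the authors' deposited table, where its adjusted p was 2.63e-05, and its peak had 2.44 in the ClpX comparison. Ccdc18 had 3.87 in the authors' deposited table.

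The largest decreases were -4.22 for Atp10d, a phospholipid flippase gene that RefSeq lists as a transcribed pseudogene, and -4.0 for Marveld2, a protein of tight junctions where 3 cells meet, in the authors' deposited table. The Marveld2 peak (chr13:100611455-100612173) had -3.28 in the ClpX comparison, also in the authors' deposited table. Hspa1b, a heat-inducible HSP70, and Ncoa7, a nuclear receptor coactivator, both had -3.88, and Wdr33, of the mRNA polyadenylation complex, had -3.83 in the authors' deposited table. The peak of Ncoa7 was by far the most enriched of these, at 95.7-fold over input in the authors' deposited table. Mipepos, Scara3, Cstdc1 and Nipal3 had -3.66, -3.61, -3.55 and -3.46 in the authors' deposited table, and Cstdc1 had -6.20 in the ClpX comparison.

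Among 35 gene lists, the genes of cohesin, condensin and the related SMC complexes had the highest median over peaks. That rank was lost to spermatocyte markers without peaks of fold enrichment under 2 (1.22 against 0.96), and to markers of other somatic cells when each gene counted once, by its peak of smallest p (1.36 against 1.25). Counted in that way, the median over all genes was -0.158, so the values with 1 value per gene below are to be read against it. These ring-shaped complexes hold sister chromatids together, fold chromosomes into loops and compact them for division. Their 25 genes with a listed peak carried 62 peaks, of which 24 (38.7%) were called higher and 5 (8.06%) lower, against 6.74% and 12.8% of all peaks, and the median was 1.0 with quartiles of 0.16 and 1.64. No list was tested for enrichment, and the counts are a description of these libraries.

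By role, the cohesin ring and its STAG subunits had 7 higher calls among 21 peaks and no lower one, with 4 of the 7 on Smc3, and 4 uncalled Stag1 peaks lie in pairs on the same bases. Smc3, a core subunit shared by mitotic and meiotic cohesin, had 3.5, 2.85, 1.49 and 1.43 at its called peaks and 1.35, 1.25 and 0.16 at the others in the authors' deposited table. Smc1b, the meiosis-specific partner of Smc3, had 3.18 (chr15:85090939-85097536) and 1.78 at its 2 called peaks and 0.96 and -0.26 at the others in the authors' deposited table. Rad21l, a meiotic kleisin, had 2.17 and the X-linked Smc1a and Stag2 had 1.67 and 1.58 in the authors' deposited table, none of them called. Rec8 and Stag3, the meiotic kleisin and STAG subunit, had no listed peak.

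Of the genes that load, release or protect cohesin, Sgo1, the shugoshin that guards centromeric cohesin, had 3.09 and 1.74 at its called peaks in the authors' deposited table. Both peaks of Pds5a, a regulator of cohesin release, were called higher, at 1.25 and 0.80 in the authors' deposited table, the first on bases shared with a peak of another gene. Wapl, which opens the ring, was split, with -0.71 over 4 blocks at the 5' part of the gene and 1.42 at a weak peak nearer the 3' end in the authors' deposited table. Mau2, of the cohesin loader, was lower at its single peak, at -0.996 in the authors' deposited table. Nipbl, the other loader subunit, had -0.25 and -0.01 in the authors' deposited table and was not called.

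In condensin, Smc4 had 4 of 6 peaks called higher, at 1.66, 0.87, 1.2 and 3.33 in the authors' deposited table, and Smc2, its partner, had 1 of 3, at 3.33. Ncaph2, a subunit of condensin II, was lower at both of its peaks, with -1.39 and -0.66 in the authors' deposited table, and the second shares bases with a peak of another gene. Smc5 and Smc6, which form the complex of DNA repair, had 5 of 8 peaks called higher and 1 lower. The lower one, on Smc6 at 96.6% of the gene span, had -1.27 in the authors' deposited table, while the other Smc6 peaks had 2.1, 1.77 and 1.16.

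The list was also set beside peaks of the same structure and strength, in subsets chosen after seeing the data. Among peaks of 3 or more blocks, 13 of 22 in the list were called higher (59.1%), against 17.0% of all such peaks. Among peaks of 1 block it was 5 of 21 (23.8%) against 4.92%. With a fold enrichment of at least 5, 13 of 37 were called higher and the median was 0.96, against 3.83% and -0.12 for all peaks that strong. Without Smc3, Smc4 and Smc1b the list had 14 higher and 5 lower of 45 peaks and a median of 0.85. In the ClpX comparison the list had 54 peaks, 6 called higher and 3 lower, against 15.1% and 5% of all peaks there, and its median was 0.49 against 0.24.

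Spermatocyte markers had a median of 0.54 over 25 peaks, and 0.34 with 1 value per gene, with 6 called higher and none lower (8 higher and none lower at an unadjusted p under 0.05). Besides the 4 calls on Sycp2, they were Tex12 at 1.63 and Syce2 at 1.37 in the authors' deposited table, both parts of the central element of the synaptonemal complex. Spermatid markers had 7 higher and 5 lower of 28 peaks and a median of 0.07, which turned to -0.08 without fold enrichment under 2. Txndc2, a thioredoxin of the sperm tail, had 1.82 in the authors' deposited table, and Odf2, of the outer dense fibres, had -0.57 at its best supported peak and 1.17 and 0.78 at others. Sertoli cell markers had 3 higher and 5 lower of 27 peaks, and their median of 0.14 turned to -0.64 with 1 value per gene. By gene, 3 had a higher call and 4 a lower one, 1 of them both. Inha, the inhibin alpha subunit, had -1.52 and Tjp1, a tight junction scaffold, -1.80 in the authors' deposited table. Clu was called higher, at 0.86, and Ctsl had 1 call each way, with -1.02 at its best supported peak, in the authors' deposited table. Markers of other somatic cells had 3 higher and none lower of 19 peaks and a median of 0.36, or 1.36 with 1 value per gene, the higher ones on Myh11 and Col1a1. Markers of spermatogonia had 1 higher and 1 lower of 20 peaks and a median of 0.38, or 1.02 with 1 value per gene. Whether a change in cell types went with the enrichment values was not tested.

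Cytosolic aminoacyl-tRNA synthetases, which charge tRNAs with amino acids, had 6 of 32 peaks called higher and none lower (10 higher and 3 lower at an unadjusted p under 0.05), with a median of 0.46. In the authors' deposited table Vars had 1.81, Eprs 1.52, Farsb 1.5 and Aimp2, a scaffold of the synthetase complex, 0.92. The fold enrichment of these 4 peaks was low, between 1.57 and 2.79 in the authors' deposited table, and the Aimp2 peak shares bases with a peak of another gene.

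The mitochondrial lists did not move together. Genes for mitochondrial rRNA maturation and translation factors had 4 higher and 12 lower of 55 peaks and a median of -0.35, or -0.17 with 1 value per gene. Mrm3, an rRNA methyltransferase, had -1.80, Fastkd2, an RNA-binding protein of the large subunit's assembly, -0.83, and Dhx30, a helicase of the mitochondrial RNA granules, -0.58 in the authors' deposited table. Mitochondrial ribosomal proteins themselves were even, with 10 calls each way among 84 peaks (11.9% each) and a median of -0.0038, with no stable sign. Within them Mrps7 had -1.24, Mrps18a -1.39 and Mrpl37 -1.02, and Mrpl36 had 1.43 in the authors' deposited table. Carriers of the inner membrane had 1 higher and 7 lower (15.9%) of 44 peaks and a median of -0.13. Slc25a33, a pyrimidine nucleotide carrier, had -0.90 and Slc25a46, of the outer membrane, -0.80, while Slc25a31, the germ-line ADP/ATP carrier, had 2.36 at a peak of fold enrichment 1.67 in the authors' deposited table. Protein import genes had 5 higher and 3 lower calls among 44 peaks and a median of 0.03, or -0.17 with 1 value per gene, with Timm8b at -0.54 and Timm8a2 at 1.12 in the authors' deposited table. Respiratory complex assembly factors had 2 higher and 4 lower of 48 and a median of 0.016, or -0.08 with 1 value per gene, with Pet100, for cytochrome oxidase, at 2.53 and Uqcc1, for complex III, at -1.44 in the authors' deposited table.

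RNAs encoded by mitochondrial DNA carried 7 listed peaks, 6 called higher and 1 lower. The largest values were on the mitochondrial rRNAs, mt-Rnr2 with 1.65 and mt-Rnr1 with 1.67 in the authors' deposited table. Each of the 2 peaks on mt-Nd2 and mt-Nd4, subunits of complex I, was higher, including mt-Nd2 at positions 3914 to 4240 with 0.43 and mt-Nd4 at 10885 to 11035 with 0.79 in the authors' deposited table. The exception was mt-Nd5 at 11742 to 11951, with -0.48 in the authors' deposited table, and 1.48 in the ClpX comparison. All 7 were weak peaks, with fold enrichments between 1.12 and 3.31.

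Ubiquitin ligases lay below the median of all peaks. RING ligases had 13 higher (6.70%) and 40 lower (20.6%) of 194 peaks with a median of -0.16, and cullin ligases and their substrate receptors had 10 higher (4.95%) and 36 lower (17.8%) of 202 with -0.17, and with 1 value per gene the medians were -0.35 and -0.43. Trim27 had -1.20, Trim36 -1.0 and Rnf19a -0.81 in the authors' deposited table. Klhl11 had -0.95, Fbxw5 -0.79 and Dcaf5 -0.79 in the authors' deposited table. Deubiquitinases had 10 higher (8.0%) and 23 lower (18.4%) calls and a median of 0.05, or -0.19 with 1 value per gene, with Otub2 at -1.02, Usp2 at -0.67, Usp1 at -0.54 and Usp8 at 0.87 in the authors' deposited table. Proteasome genes had 4 higher and 3 lower of 35 and a median of -0.12. Psma1, a core subunit, had 2.14 and Psme4, the activator known for histone breakdown in spermatids, 0.90, while Psmd8 had -0.52 in the authors' deposited table.

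Tubulins had a median of -0.36, close to the -0.35 of mitochondrial rRNA maturation, with 10 of 23 peaks called lower and 2 higher. Tuba1c had -1.35, Tubg1 -1.25, and the testis alpha-tubulins Tuba3a and Tuba3b -0.40 and -0.32 at their best supported peaks in the authors' deposited table. Tuba8 and Tuba4a, at 0.81 and 0.77 in the authors' deposited table, were among the peaks above 0. The upper quartile of the list was 0.12 and its highest peak had 0.945. Tuba3a and Tuba3b are near-identical copies, and no source used here says how reads shared by such copies were counted. Histones had 2 higher and 11 lower of 45 peaks and a median of -0.26, with Hist1h3b at -2.58, Hist1h4k at -1.27, Hist1h4j at -1.19 and H2afx, the variant phosphorylated on the sex chromosomes in meiosis, at -0.74 in the authors' deposited table. Histone genes share long stretches of sequence, so the same limit holds. Cytosolic ribosomal proteins had 4 higher and 10 lower of 28 peaks and a median of -0.07, which turned to 0.17 with 1 value per gene, with Rpl10l and Rps4l at -0.99 and -0.89 and Rpl4 at 1.03 in the authors' deposited table.

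Genes of sperm structure differed between lists. The flagellum list, which also takes in every gene of a Ccdc symbol, had 71 higher (17.7%) and 43 lower (10.7%) of 401 peaks and a median of 0.17, or 0.28 with 1 value per gene. The axonemal dynein heavy chains (Dnah genes, a set formed after values were seen), motors that bend the tail, had 11 higher and 4 lower of 43 peaks and a median of 0.59. Dnah8 had 4 called peaks, all higher, at 0.32 to 0.70, and Hydin, of the central pair, had 3, at 1.03, 2.0 and 2.57, in the authors' deposited table. Rsph6a, of the radial spokes, had 3 lower calls, at -0.92, -0.51 and -0.63, as had Ift140, of intraflagellar transport, at -0.41, -0.51 and -0.46, in the authors' deposited table. Tekt3 had -0.77 and Ccdc92 -0.49 at their best supported peaks in the authors' deposited table, and 1 of 3 Tekt3 peaks was called higher. Fibrous sheath and outer dense fibre genes had 14 higher and 16 lower of 62 peaks and a median of -0.03, or -0.38 with 1 value per gene, and 10 of the 14 lay on Fsip2. Tssk1, a kinase of spermatids, had -0.78, and the sheath anchor Akap3 had -0.87 in the authors' deposited table. Acrosome genes had 1 higher and 6 lower of 40 and a median of -0.05, or 0.03 with 1 value per gene, with Acrbp, which binds proacrosin, at -0.55 and Spata16 at 0.61 in the authors' deposited table.

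Regulators of gene expression had more lower than higher calls, as all peaks had, and medians over peaks just above 0. Transcription factors of meiosis and spermatids had 4 higher and 11 lower of 58 peaks and a median of 0.034, or -0.06 with 1 value per gene, with Sox30 at -0.67, Gtf2a1l at -0.35 and the RNA-binding Rbm46, needed for meiosis, at -0.57 in the authors' deposited table. Splicing factors had 14 higher (13.0%) and 17 lower (15.7%) of 108, both above the shares of all peaks. Their median was 0.09, or -0.24 with 1 value per gene. By gene, 11 had a higher call and 15 a lower one, 1 of them both. Mbnl2 had -1.57, Srsf5 -1.02 and Hnrnpa0 -1.03 at its best supported peak in the authors' deposited table. Hnrnpa0 also had 2 peaks called higher. RNA helicases had 6 higher (6.19%) and 17 lower (17.5%) of 97 and a median of 0.016, or -0.27 with 1 value per gene. Ddx6, of mRNA storage granules, had -1.87 over 3 blocks (chr9:44604892-44612835) in the authors' deposited table, and 1 of its 3 peaks was called higher. Chromatin enzymes had 21 higher (6.71%) and 36 lower (11.5%) of 313, near the shares of all peaks. Their median was 0.034, or -0.11 with 1 value per gene. Kdm2a had -1.48 and Kdm5b -0.89 at their best supported peaks in the authors' deposited table, and 1 of 7 Kdm5b peaks was called higher. Zinc finger proteins, the largest list, had 30 higher (3.55%) and 63 lower (7.46%) of 844 peaks and a median of 0.065. With 1 value per gene their median was 0.22, above the -0.158 over all genes. The best supported calls included Zfp91 at -0.98 and Zfp41 at -0.88 in the authors' deposited table.

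The remaining lists are set beside the 6.74% and 12.8% of all peaks. Cyclins and division kinases had 4 higher (4.21%) and 14 lower (14.7%) of 95 peaks and a median of 0.018, with Cdk9, the kinase that releases paused RNA polymerase, at -1.19 in the authors' deposited table. Kinesins and cytoplasmic dynein had 13 higher and 14 lower (11.7%) of 120 and a median of 0.08. The dynein subunits Dynll2 and Dync1h1 had -0.94 and -0.71 at their best supported peaks in the authors' deposited table. In Dync1h1, 1 of 5 peaks was called higher. HSP70 and HSP90 chaperones had 6 higher and 8 lower (15.7%) of 51 and a median of -0.034, with Hspa5, the chaperone of the endoplasmic reticulum, at -0.74 and the co-chaperone Bag5 at -0.83 in the authors' deposited table. J-domain co-chaperones had 7 higher and 12 lower (17.4%) of 69 and a median of -0.04, or 0.07 with 1 value per gene, with Dnajb9 at -0.74, Dnajb1 at -0.73 and Dnajb3 at -0.69 in the authors' deposited table. Genes of mTORC1 signalling, which the study's title names, had 3 higher (4.92%) and 7 lower (11.5%) of 61 peaks and a median of -0.0028, or -0.19 with 1 value per gene. The BCL2 family had 1 higher and 3 lower of 19 and a median of -0.28, with Bcl2l14 at -0.63 in the authors' deposited table. Vacuolar ATPase subunits had 3 higher and 3 lower of 12 and a median of 0.28. Protamines and transition proteins had 3 higher and 2 lower of 21 and a median of 0.05, or -0.0087 with 1 value per gene, among them the spermatid linker histone Hils1 at -0.33 and the chaperone Hspa4l at 1.99 in the authors' deposited table.

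**Figure D4:**
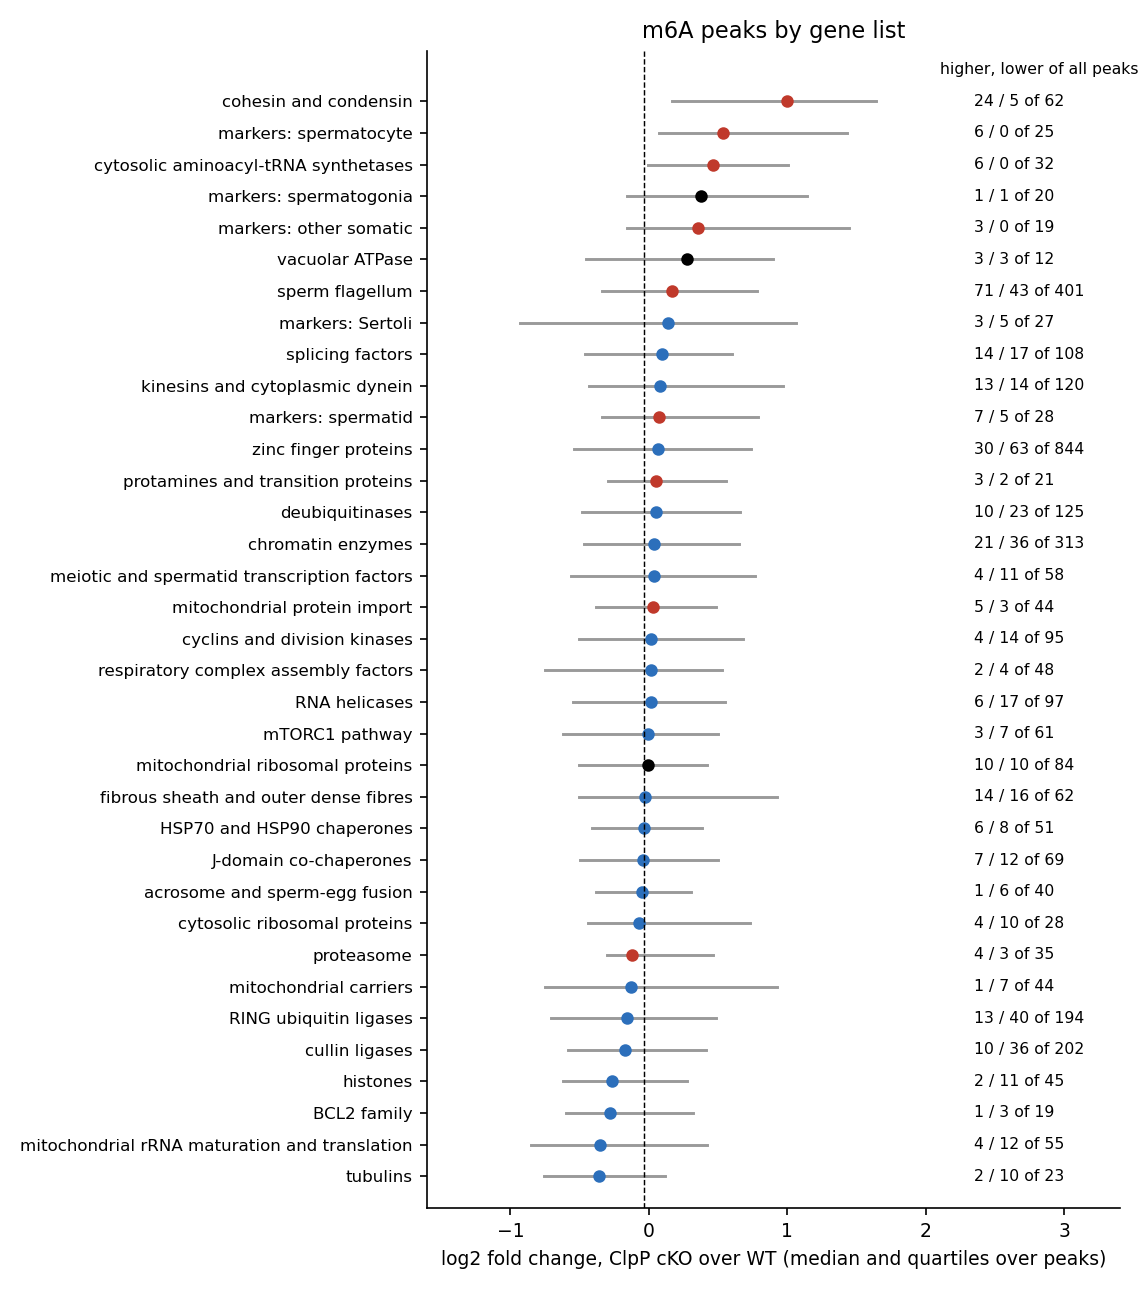
Median (point) and quartiles (line) of the log2 fold change over the peaks of each of 35 gene lists (x axis), with the numbers called higher and lower of all peaks of the list at the right; red points have more higher than lower calls, blue points fewer and black points equal numbers, and the dashed line is the median of all peaks, -0.03. Cohesin and condensin lie at the top with 1.0 and tubulins at the bottom with -0.36.

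The median of the X chromosome lay above that of each of the 19 autosomes. Its 722 peaks on 460 genes had a median of 0.23 with quartiles of -0.55 and 1.0, while the medians of the 19 autosomes lay between -0.20 (chromosome 15) and 0.07 (chromosome 13). The share called lower was 4.57% on the X and between 9.52% and 17.4% on the autosomes, and the share called higher was 4.85%, just below the autosomal range of 5.07% to 9.37%. In male meiosis the X is silenced in the sex body, and many X-linked genes are read before it or again in spermatids. The X peaks differed in kind, with a median fold enrichment of 11.4 against 8.04 on autosomes. They were also less well supported, with 63 of 722 in the quintile of strongest peak support and 189 in the weakest. On autosomes the median was -0.35 in the strongest of these quintiles and 0.32 in the weakest. The X median was above the autosomal one in 5 of 5 quintiles of fold enrichment, by 0.15 to 0.40, and in 5 of 5 quintiles of length. It was above it in 4 of 5 quintiles of peak support, and in the second strongest it was -0.17 on the X and -0.09 on autosomes. The gap was smaller there, from -0.09 to 0.17 over the 5 quintiles of peak support. Over all peaks the medians were 0.23 on the X and -0.04 on autosomes. In the ClpX comparison the X median was 0.22, inside the range of the autosomes there, 0.02 to 0.40.

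Among X-linked genes called higher, Tsx, a gene expressed in testis, had 2.14, Actrt1, an actin-related protein of the sperm head, 2.75, and Nxf2, a germ-cell mRNA export factor, 2.12 in the authors' deposited table. Cul4b, a cullin scaffold, had 1.5 over 3 blocks and Jade3, of a histone acetylation complex, 0.87 in the authors' deposited table. Among those called lower, Sox3, a transcription factor of spermatogonia, had -1.51, Tsc22d3, a glucocorticoid-induced leucine zipper, -1.08, and Tmsb4x, which binds actin monomers, -0.79 in the authors' deposited table. The RING ligase Pja1 had -0.54, and Akap4, the main anchoring protein of the fibrous sheath, had -0.20 in the authors' deposited table. The Y chromosome had 41 peaks with a median of -0.42, and by the authors' adjusted p none was called, with 2 higher and 0 lower at an unadjusted p under 0.05.

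**Figure D5:**
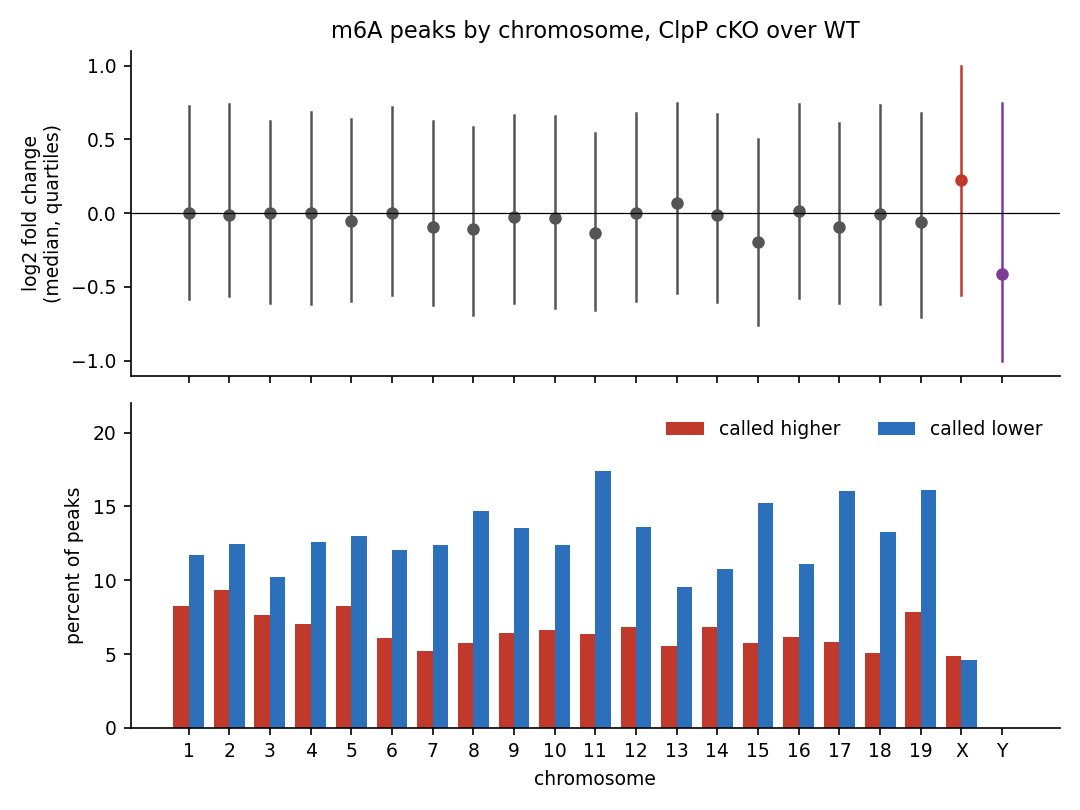
Median and quartiles of the log2 fold change of peaks (top) and percent of peaks called higher (red) and lower (blue, bottom) for each chromosome (x axis), ClpP cKO over WT. The X median of 0.23 lies above the 19 autosomal medians, and its share of lower calls, 4.57%, is below theirs.

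For a few peaks the values of both knockouts are given side by side, as those called in both that differed most. Golt1b, a Golgi transport protein, had -2.16 in the ClpP and 1.67 in the ClpX comparison of the authors' deposited tables. Psmd9, a proteasome assembly chaperone, had -0.99 and 2.62 at its start peak in the authors' deposited tables. Sin3b, a corepressor scaffold, had -1.34 and 2.21, Zfp956 -0.94 and 2.71, and Hist1h3b -2.58 and 0.83 in the authors' deposited tables. In the other direction, Fsip2 had 0.84 and -1.24 at chr2:82981878-82982928 and Rasgef1b had -2.87 and -4.44 in the authors' deposited tables. Both knockouts were compared with the same WT libraries, so a value of WT enters both numbers of each pair.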

How the data were processed

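m6A-seq peaks from 4 libraries were used, IP and input of WT and of ClpP cKO, 1 of each; the groups were read from the sample titles. Libraries were built from 1.3 ug total RNA, per the labels' protocols. Coordinates follow GRCm38 (mm10), as the submitters' processing notes name it. Per the file headers, the authors deposited 1 line per peak with its p-value and with scores that give log10 of the p-value and of the adjusted p. Per the file headers, they also deposited the fold enrichment as a linear ratio and, for the difference, a log2 fold change with a score for log10 of its p-value and adjusted p. No read counts were used, so library depth is unknown. Aligner, peak caller, settings and library scaling were not given in the sources used here.

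Calls are the authors' adjusted p under 0.05, with the sign of the log2 fold change as direction. Single libraries allow no test over replicates, and medians and counts are descriptions. Gene spans and start windows came from RefSeq (GRCm38.p6) by symbol, which placed 21931 peaks (90.9%); 9262 of 13334 genes had a start window. Peak blocks were overlapped with bedtools 2.31.1, with a minimum of 1 base. Overlaps with start windows were taken by strand. Bases shared between peaks were counted on either strand, so genes on opposite strands are included, and 10.8% of peaks share bases with another. Python 3.11.15 and pandas 2.3.3 were used, and the scripts were tested on simulated data.

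Named genes followed a rule: the 10 largest changes per direction among called peaks of fold enrichment of at least 5, without predicted genes or bases shared with another gene's peak; up to 4 called genes per list by adjusted p; 8 genes with the widest gap between called directions; 8 genes with most calls in 1 direction; up to 5 genes per direction on X and Y; and up to 5 pairs per direction with the ClpX table. The start peaks, the mitochondrial RNAs, and the further members of the cohesin, tubulin, flagellum and marker lists were named after their values were seen. Some genes that the rule takes in are not reported here. The gene lists, the rule and the alternatives were chosen with earlier results of these data known. Alternatives were a stricter adjusted p, a fold threshold, centring on the median, leaving out weak peaks or shared bases, and 1 value per gene.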

Additional observations from a re-analysis of the deposited data

Results flagged for a closer look

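Some values differed in direction between the ClpP and the ClpX comparison; the differences were not tested, and both comparisons use the same WT libraries. Of the called peaks, 34.4% were higher for ClpP and 75.1% for ClpX. The median log2 fold change of start peaks was -0.317 for ClpP and 0.212 for ClpX, beside medians of all peaks of -0.03 and 0.239. The median over peaks of RING ubiquitin ligases was -0.156 for ClpP and 0.293 for ClpX.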

How the results depend on the processing

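The calls rest on 1 library per group, with depth unknown, and the direction of the ratio on the order of names in the table. No paired analysis was possible because each group has 1 library, and no library could be left out. With an adjusted p under 0.01, 979 peaks were called higher, 29.6% of called peaks were higher, 137 genes had calls in both directions and 29 start peaks were called higher. When calls also had to change by at least 1 on the log2 scale, 1122 peaks were called lower, 49.2% of called peaks were higher, 72 genes had calls in both directions, and start peaks had 21 higher and 132 lower calls. The share of higher calls was 39.9% after subtracting the median and calling anew, 32.0% without fold enrichment under 2 and 36.2% without shared bases. Subtracting the median turned the median of the last part of the gene span to 0.0163. The X median stayed between 0.226 and 0.268 and the start median between -0.32 and -0.283 in the alternatives run. The stricter adjusted p and the fold threshold change calls only, so they could not move these medians. On the X, lower calls fell to 20 with the fold threshold and higher calls to 15 with an adjusted p under 0.01. Of 210 list medians under alternatives, 202 stayed within the 95% interval of the median over peaks. The stricter adjusted p and the fold threshold gave 35 of these each, which could not move. Centring shifted all lists by the same amount. The 8 that left the interval were all with 1 value per gene, where 27 of 35 stayed. By sign, 18 of 35 lists changed under at least 1 alternative, 13 of them with 1 value per gene (the peak of smallest p). These were, by any alternative, the lists of mitochondrial ribosomal proteins, protein import, assembly factors, transcription factors, fibrous sheath, acrosome, protamines, both chaperone lists, deubiquitinases, splicing factors, helicases, chromatin enzymes, cyclins, cytosolic ribosomal proteins, mTORC1, and spermatid and Sertoli markers. Ranks between lists also moved: without fold enrichment under 2 the lowest median was that of mitochondrial rRNA maturation, -0.42 against -0.34 for tubulins, and with 1 value per gene that of Sertoli markers, -0.64, followed by cullin ligases, -0.43, and tubulins, -0.39. The analyses of start peaks, X calls, like-strength groups and cohesin subsets were added after seeing the data.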
